A study of Mus musculus with 24 samples.

Results

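The genes described here are 9 components and inhibitors of complement, C1qa, C1qb, C1qc, C2, C3, C4b, C7, Serping1 and Clu. They were taken by symbol from a table of raw RNA-seq counts, which held all 9 of them among 25229 symbols. All 9 were among the 13571 genes with enough counts to be tested.

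The counts come from 24 poly-A libraries in 4 groups of 6. Each was made from the septum and left ventricle of C57BL/6 hearts, and all mice were male. The TAC/Benzene group had transverse aortic constriction, a narrowing of the aorta that loads the left ventricle with pressure, and then breathed benzene at 50 ppm. The TAC/Air group had the same operation and breathed HEPA-filtered air. The Sham/Benzene and Sham/Air groups had a sham operation followed by benzene or by filtered air. In all groups exposure began after 1 week of recovery and ran for 6 weeks, 6 hours a day on 5 days a week. The labels give neither the age of the mice nor whether a library is 1 mouse or a pool, so p-values measure the spread between these libraries, which may be technical. The comparisons ask whether pressure overload, benzene or both together went with a different level of each transcript.

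Complement is a cascade of plasma proteins that is set off in 3 ways. In the classical way, C1q, built of A, B and C chains, binds antibody or dying cells and activates the proteases C1r and C1s, which cut C4 and C2 into the enzyme that cleaves C3. The lectin way reaches C4 and C2 through MASP proteases, and the alternative way builds a C3-cleaving enzyme from C3 itself with factors B and D. C3 cleavage tags surfaces for uptake, and C5 to C9, C7 among them, form the membrane attack complex. Serping1 encodes C1 inhibitor, which blocks C1r, C1s and the MASPs, and Clu encodes clusterin, a secreted chaperone that also keeps the membrane attack complex from inserting. Liver makes most circulating complement, while in the heart C1q chains are made largely by macrophages and C3, C4 and C1 inhibitor also by fibroblasts and other stromal cells.

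Library totals ran between 10016860 and 13724100 counts in TAC/Benzene, 10479981 and 13581729 in TAC/Air, 9396445 and 14632231 in Sham/Benzene, and 4170660 and 12718494 in Sham/Air. Sham/Air replicate 1 was the smallest library and stood apart. Its rank correlation with the other libraries over genes was between 0.852 and 0.913, while the other 23 correlated with each other at between 0.963 and 0.996. Results that rest on it are given with and without it. Libraries also deviated from their group mean along the GC content of genes, with a Spearman's rho over genes between -0.72 and 0.72. Both ends of that range were in Sham/Air, whose mean includes replicate 1. Cardiomyocyte genes, which define the labelled tissue, were abundant throughout, with Myh6 at a median of 16929 CPM in TAC/Benzene and 26796 CPM in Sham/Air. The load-induced genes Nppa, Nppb, Myh7 and Acta1 were higher after TAC in air and in benzene without overlap between the groups, Nppa by 3.82 and 3.89 on the log2 scale. Because the tissue is bulk, fewer cells of a type and less RNA per cell cannot be told apart.

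Levels are given in CPM, counts scaled to the library's total with TMM factors. Differences are log2 fold changes with their standard error from edgeR's quasi-likelihood fit over all 24 libraries, and a gene is said to be called where the Benjamini-Hochberg adjusted p over the 13571 genes is under 0.05. Per kilobase of its longest GENCODE transcript, Clu was the most abundant of the 9 and C2 the least in every group. In TAC/Air, Clu stood at 580.4 CPM per kilobase, Serping1 at 143, C1qb at 73.6, C1qa at 70.7, C3 at 51.5, C1qc at 48.8, C7 at 13.3, C4b at 12.1 and C2 at 0.671. In Sham/Air, C3 at 57.2 CPM per kilobase lay between C1qa at 57.8 and C1qb at 56.9. That order rests on Sham/Air replicate 1, which held 382 CPM of C3, 16.5 CPM of C1qa and 34.9 CPM of C1qb. The other libraries of Sham/Air held 265 to 285 CPM of C3, 55.1 to 79.3 CPM of C1qa and 60.4 to 74.1 CPM of C1qb. In TAC/Benzene, C3 at 42.5 CPM per kilobase lay below all the C1q chains, of which C1qc was the lowest at 45.6.

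**Figure D1:**
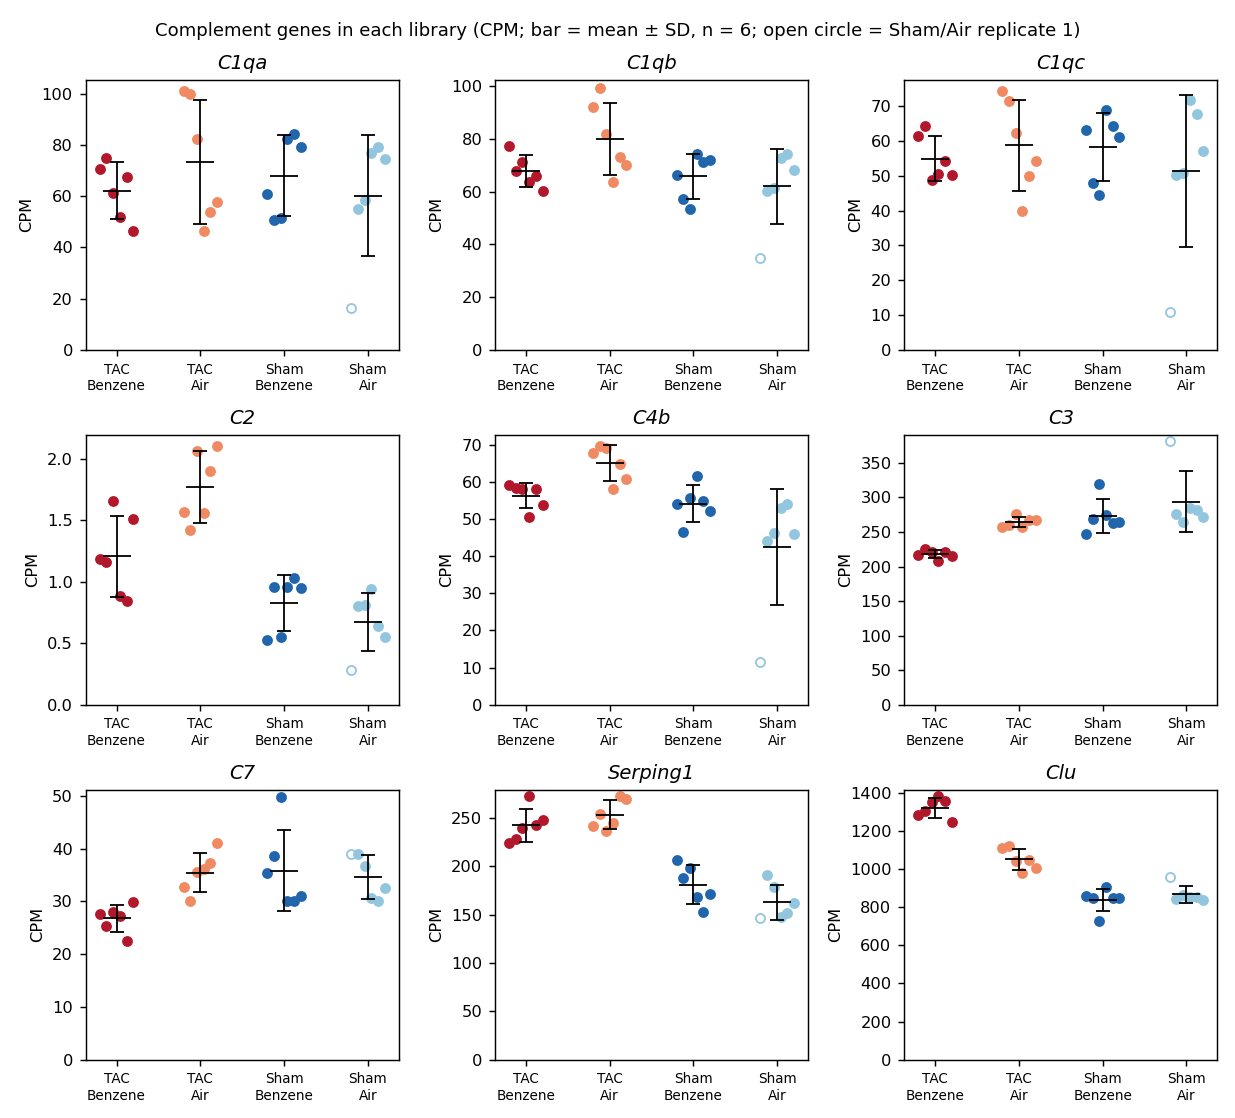
Each panel plots the CPM of 1 complement gene (vertical axis, starting at 0) in the 6 libraries of each group, with a bar for the mean and whiskers for the SD. Clu in TAC/Benzene lies above every other library, C3 and C7 in TAC/Benzene lie below every other library, and Sham/Air replicate 1, the open circle, is the lowest library for C1qa, C1qb, C1qc and C4b and the highest for C3.

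Promoter sequences are shown for C1qb, C1qc, C3 and C7, the only members found in the set of promoters that was searched. That set held none for C1qa, C2, C4b, Serping1 and Clu, so levels played no part in which are shown. The 4 sequences shown are the 250 bases before the transcription start in RefSeq's GRCm38.p6 annotation. Each is on the minus strand and written 5′ to 3′. Capitals mark the letters of a searched motif.
C1qb, chr4:136886201-136886450: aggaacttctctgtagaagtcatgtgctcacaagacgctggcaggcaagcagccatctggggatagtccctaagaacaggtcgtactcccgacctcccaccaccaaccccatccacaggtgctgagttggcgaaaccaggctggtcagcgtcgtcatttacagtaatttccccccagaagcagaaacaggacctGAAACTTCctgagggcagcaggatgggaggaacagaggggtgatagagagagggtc
C1qc, chr4:136892915-136893164: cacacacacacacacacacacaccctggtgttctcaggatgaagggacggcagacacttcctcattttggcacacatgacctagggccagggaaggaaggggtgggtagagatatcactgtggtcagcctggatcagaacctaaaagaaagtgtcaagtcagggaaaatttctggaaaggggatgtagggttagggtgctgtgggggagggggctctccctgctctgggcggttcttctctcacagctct
C3, chr17:57228137-57228386: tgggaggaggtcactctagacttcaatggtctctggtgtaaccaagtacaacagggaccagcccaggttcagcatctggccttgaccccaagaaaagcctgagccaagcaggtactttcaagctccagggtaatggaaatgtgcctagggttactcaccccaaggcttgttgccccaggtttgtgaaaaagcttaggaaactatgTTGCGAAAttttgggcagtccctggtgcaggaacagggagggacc
C7, chr15:5063774-5064023: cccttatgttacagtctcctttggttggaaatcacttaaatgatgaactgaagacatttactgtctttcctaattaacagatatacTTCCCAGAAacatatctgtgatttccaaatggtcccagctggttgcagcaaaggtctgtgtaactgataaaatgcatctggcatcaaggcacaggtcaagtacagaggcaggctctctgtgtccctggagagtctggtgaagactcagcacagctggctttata
Searched on both strands were GAS (TTCNNNGAA), the interferon-stimulated response element, the heat shock element (GAANNTTC), NF-kB (GGGNNTTCC) and C/EBP (TTGCNNAA). C1qb held the heat shock letters GAAACTTC at 56 to 49 bases before the start. C3 held the C/EBP letters TTGCGAAA at 45 to 38 bases before it, and C7 the GAS letters TTCCCAGAA at 164 to 156 bases before it. C1qc held none of the 5. None of the 3 matches overlapped another motif. Of 32851 promoters of this length, 6.69% held the heat shock letters, 9.56% the C/EBP letters, 7.02% the GAS letters, 4.98% the NF-kB letters and 2.98% those of the interferon-stimulated element. These matches are strings of letters and say nothing of binding.

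After TAC in air, 4 of the 9 members were higher and none lower, against a background of 8.81% of all genes called higher and 7.35% called lower. They were C2, C4b, Serping1 and Clu, and each was higher without overlap between the groups, as were 5.78% of all genes. After TAC in benzene, 2 members were higher and 2 lower, where 8.67% of all genes were called higher and 7.97% lower. Serping1 and Clu were again the higher ones, and the lower ones were C3 and C7. These 4 did not overlap between the groups either, nor did 7.62% of all genes that were higher and 6.31% that were lower. Averaged over exposures, C2, Serping1 and Clu were higher after TAC and C3 lower, where the background was 14% of genes higher and 13.3% lower.

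Benzene in TAC hearts went with higher Clu, the one member called, where 0.295% of all genes were called higher. Clu lay above TAC/Air in every TAC/Benzene library, as did 1.5% of all genes. C3 and C7 lay below TAC/Air in every TAC/Benzene library, as did 1.21% of all genes, and were not called. DESeq2 and limma-voom each called all 3. In sham hearts no member was called by edgeR, DESeq2 or limma-voom, none had an unadjusted p under 0.05, and all 9 overlapped between the groups. The background there was 0.0221% of genes called. Averaged over surgeries, benzene went with no call among the members, where 0.192% of all genes were called. Of the members 3 had an unadjusted p under 0.05 there, DESeq2 called none and limma-voom called C3 and Clu. The 2 comparisons of TAC with sham share no library, but each TAC group and each sham group serves in 2 comparisons, so the signs of the 4 are not independent.

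**Figure D2:**
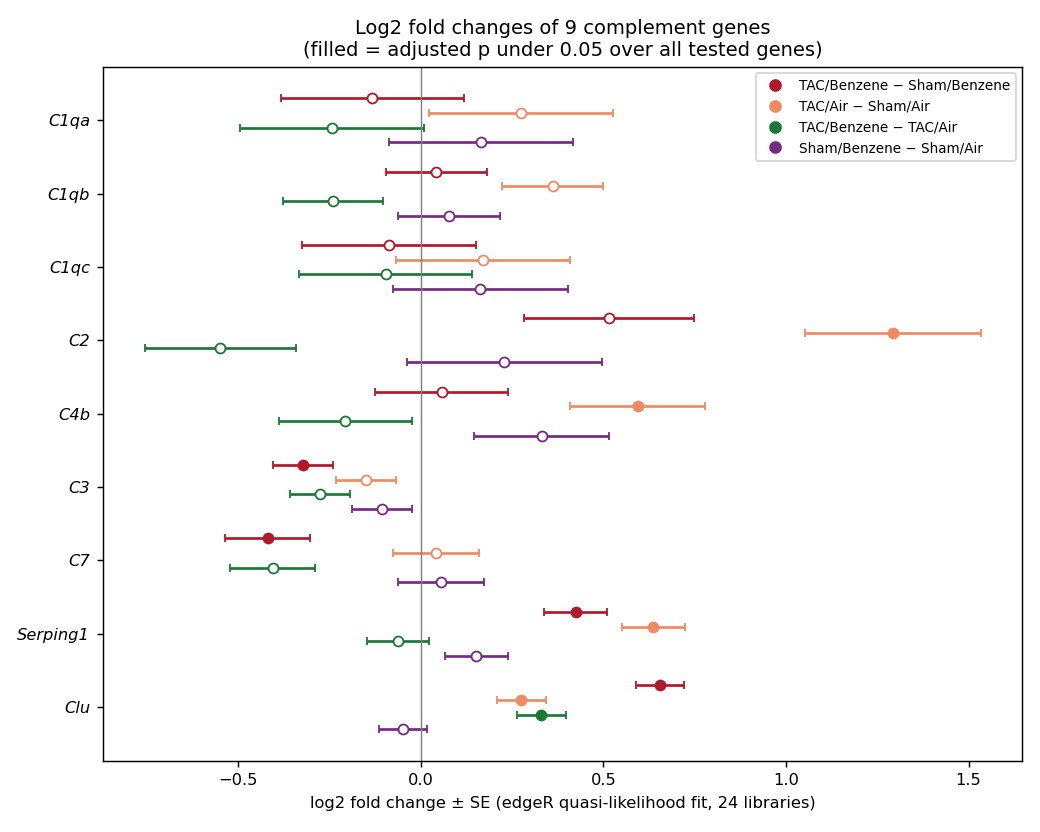
For each of the 9 complement genes, points give the log2 fold change with its SE (horizontal axis) in 4 comparisons, filled where the adjusted p was under 0.05. C2 has the largest value, 1.29 for TAC/Air over Sham/Air, and the filled points below 0 are C3 and C7 for TAC/Benzene over Sham/Benzene.

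The C1q chains recognise targets of the classical pathway and are textbook macrophage transcripts. None of them was called in any of the 7 comparisons. C1qa had 46.5, 64.3 and 74.9 CPM as lowest, median and highest in TAC/Benzene, and 46.3, 70.1 and 101 CPM in TAC/Air. It had 50.6, 70.0 and 84.3 CPM in Sham/Benzene, and 16.5, 66.6 and 79.3 CPM in Sham/Air. The groups overlapped widely, and within TAC/Air the libraries fell into an upper and a lower set with a gap between 57.7 and 82.4 CPM.

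C1qb encodes the B chain. Its lowest, median and highest were 60.3, 67.0 and 77.4 CPM in TAC/Benzene, 63.8, 77.5 and 99.2 CPM in TAC/Air, 53.4, 68.8 and 74.1 CPM in Sham/Benzene, and 34.9, 64.8 and 74.1 CPM in Sham/Air. TAC/Air had the highest median and reached above every library of the other groups, but overlapped with each of them. The log2 fold change of TAC/Air over Sham/Air was 0.36 ± 0.14 (unadjusted p = 0.0154, adjusted p = 0.0796). It was called without TAC/Air replicate 4 (0.42, adjusted p = 0.0495), and stood at 0.25 ± 0.10 without Sham/Air replicate 1 (adjusted p = 0.0937).

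C1qc encodes the C chain. It had 48.9, 52.4 and 64.2 CPM in TAC/Benzene, 40.0, 58.2 and 74.4 CPM in TAC/Air, 44.5, 62.2 and 68.8 CPM in Sham/Benzene, and 10.8, 54.0 and 71.8 CPM in Sham/Air. No group stood apart, and the lowest value of all was that of Sham/Air replicate 1. Its fold change for TAC/Air over Sham/Air was 0.17 ± 0.24 with that library and -0.03 ± 0.14 without it, on the log2 scale.

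The 3 chains moved together from library to library. Their log2 CPM, taken as deviations from group means, correlated at 0.93 to 0.97 over the 24 libraries and at 0.90 to 0.93 over the 23 without Sham/Air replicate 1. The genes are next to each other on chromosome 4, in the order C1qb, C1qc and C1qa. The count of C1qa per count of C1qb was between 0.771 and 1.10 in TAC/Benzene, 0.726 and 1.10 in TAC/Air, 0.884 and 1.18 in Sham/Benzene, and 0.472 and 1.09 in Sham/Air. The 0.472 belonged to Sham/Air replicate 1, and the other 5 libraries of that group lay at 0.912 or above.

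C1q levels also ran alongside the GC trend of the libraries. The longest transcripts of the 3 genes have 57.4% to 59.5% G and C, above the 47.2% of C7. In TAC/Air, replicates 1 to 3 had 82.4 to 101 CPM of C1qa and a rho with GC content of 0.49 to 0.52, while replicates 4 to 6 had 46.3 to 57.7 CPM and a rho of -0.63 to -0.31. With offsets fitted to each library's GC and length trend, the SE of the C1qa fold change for TAC/Air over Sham/Air was 0.08 on the log2 scale, against 0.25 without offsets. With those offsets C1qb was called higher for TAC/Air over Sham/Air (0.27 ± 0.06, adjusted p = 0.00136) and lower for TAC/Benzene over TAC/Air (-0.28 ± 0.06, adjusted p = 0.00914). C1qa and C1qc were called in neither comparison with those offsets on all 24 libraries. On the 23 libraries without Sham/Air replicate 1, offsets also called C1qa lower for TAC/Benzene over TAC/Air (-0.28 ± 0.07, adjusted p = 0.00788).

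**Figure D3:**
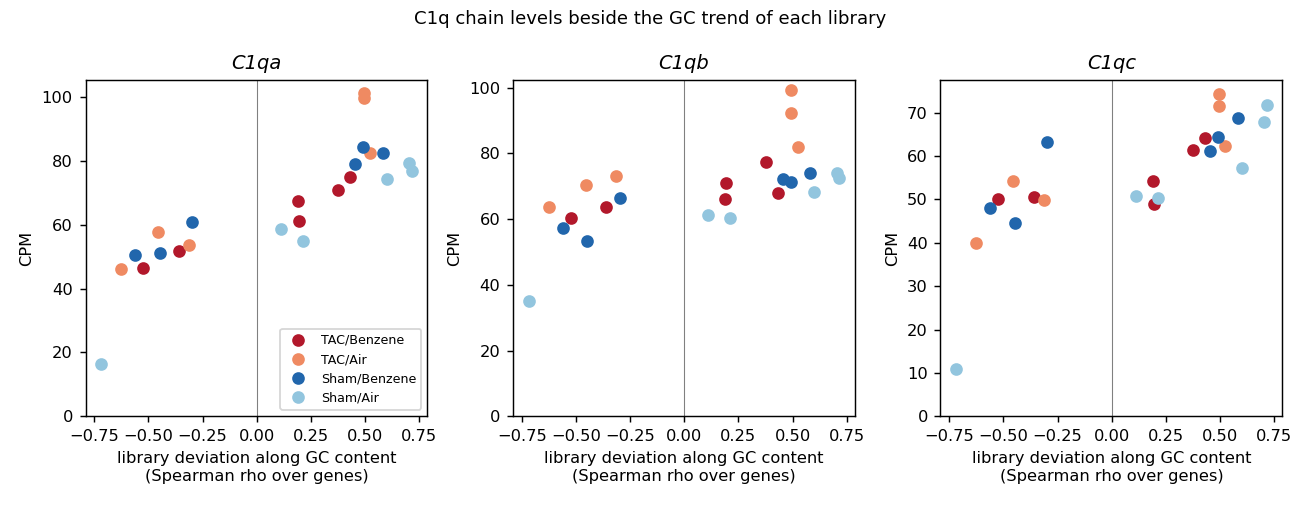
Each panel plots the CPM of a C1q chain (vertical axis) against the Spearman's rho between a library's deviation from its group mean and the GC content of genes (horizontal axis), 1 point per library, coloured by group. For C1qa and C1qb, the libraries with a positive rho have the higher levels within each group, and the 3 upper TAC/Air libraries of C1qa lie at a rho of 0.49 to 0.52. In Sham/Air the only library with a negative rho is replicate 1, at -0.72, which also enters the group mean.

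Macrophage markers were measured beside the C1q chains. The summed level of 18 macrophage genes was 542 to 600.1 CPM in TAC/Benzene, 616 to 669 CPM in TAC/Air, 500.1 to 662 CPM in Sham/Benzene and 562 to 733 CPM in Sham/Air. The sum holds Lyz2, which averaged 335 CPM in TAC/Benzene, 373 CPM in TAC/Air, 308 CPM in Sham/Benzene and 312 CPM in Sham/Air. All 18 genes were tested and none was at 0 in a whole group. After TAC in air, 8 were higher and 4 lower, where 8.81% of all genes were called higher and 7.35% lower. After TAC in benzene 3 were higher and 5 lower, where 8.67% of all genes were called higher and 7.97% lower. For benzene in TAC, 2 were lower, where 39 of all 13571 genes were called lower. Adgre1, which encodes F4/80, averaged 23.1 CPM in TAC/Benzene and 31.8 CPM in TAC/Air (-0.46 ± 0.09, adjusted p = 0.00925). The fractalkine receptor gene Cx3cr1 averaged 7.04 CPM in TAC/Benzene and 12.9 CPM in TAC/Air (-0.88 ± 0.13, adjusted p = 0.000513). The part of macrophage content in the C1q levels was not tested.

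C2 is the protease part of the classical C3-cleaving enzyme, and was the rarest of the 9. Between 9 and 19 reads were counted per TAC/Benzene library, 18 to 29 per TAC/Air library, 5 to 14 per Sham/Benzene library and 1 to 11 per Sham/Air library. It had 0.843, 1.17 and 1.66 CPM in TAC/Benzene, 1.42, 1.74 and 2.11 CPM in TAC/Air, 0.527, 0.955 and 1.04 CPM in Sham/Benzene, and 0.284, 0.724 and 0.944 CPM in Sham/Air. All TAC/Air libraries lay above all sham libraries, while TAC/Benzene overlapped with TAC/Air and with Sham/Benzene. C2 passed the count filter also without TAC/Air, with 10 libraries of the other groups over the cutoff of 0.873 CPM.

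The log2 fold change of C2 for TAC/Air over Sham/Air was 1.29 ± 0.24 (2.45-fold, adjusted p = 0.000332), and 1.22 ± 0.25 without Sham/Air replicate 1 (adjusted p = 0.000540). For TAC/Benzene over Sham/Benzene it was 0.51 ± 0.23 (adjusted p = 0.150). Benzene over air in TAC gave -0.55 ± 0.21 (unadjusted p = 0.0139, adjusted p = 0.493). The difference of the TAC effects was -0.78 ± 0.34 on the log2 scale (unadjusted p = 0.0305, adjusted p = 0.961), so it was not called. Cfb, the homologous protease of the alternative pathway, is the neighbour of C2 on chromosome 17, and whether any reads were shared between them was not tested.

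C4b encodes the C4 that is cleaved beside C2. It had 50.6, 58.0 and 59.2 CPM in TAC/Benzene, 58.1, 66.3 and 69.8 CPM in TAC/Air, 46.6, 54.4 and 61.6 CPM in Sham/Benzene, and 11.6, 46.1 and 54.0 CPM in Sham/Air. TAC/Air lay above all of Sham/Air, and TAC/Benzene overlapped with TAC/Air and with Sham/Benzene. For TAC/Air over Sham/Air the log2 fold change was 0.59 ± 0.18 (adjusted p = 0.0267), and 0.42 ± 0.08 without Sham/Air replicate 1 (adjusted p = 0.000144). The call was lost without TAC/Air replicate 1, 2 or 3 (adjusted p = 0.0527, 0.0555 and 0.0528) and in a fit of the 2 groups alone (0.60 ± 0.25, adjusted p = 0.179).

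TAC/Benzene over Sham/Benzene gave 0.06 ± 0.18 for C4b on the log2 scale (adjusted p = 0.908). Set against TAC/Air, TAC/Benzene was at -0.21 ± 0.18 (adjusted p = 1.00). The difference between the TAC effects was -0.54 ± 0.26 (unadjusted p = 0.0489, adjusted p = 1.00). With GC and length offsets and without Sham/Air replicate 1 it was called, at -0.43 ± 0.07 (adjusted p = 0.000805). Mice carry a near-identical copy, C4a, which did not pass the count filter, and how the counting divided reads between the copies is not given in the sources used here.

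C3 is the protein on which all 3 ways converge. It had 208, 219 and 225 CPM in TAC/Benzene, 257, 264 and 276 CPM in TAC/Air, 247, 266 and 319 CPM in Sham/Benzene, and 265, 279 and 382 CPM in Sham/Air. Every TAC/Benzene library lay below every library of the other 3 groups, which overlapped with each other. The 382 CPM was Sham/Air replicate 1, and the next highest of that group was at 285 CPM.

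C3 fell for TAC/Benzene over Sham/Benzene, by 0.32 on the log2 scale with an SE of 0.08 (adjusted p = 0.00633). TAC/Air over Sham/Air gave -0.15 ± 0.08 (adjusted p = 0.236), and -0.06 ± 0.06 without Sham/Air replicate 1 (adjusted p = 0.479). In TAC hearts benzene over air gave -0.28 ± 0.08 (unadjusted p = 0.00246, adjusted p = 0.195). Sham/Air replicate 1 belongs to neither group of that comparison, but leaving it out redid the filter, scaling, spread and adjustment of p. Without that library C3 was called lower (-0.28 ± 0.05, adjusted p = 0.00406). It was also called by DESeq2 (adjusted p = 0.0383), limma-voom (adjusted p = 0.000103) and the fit of the 2 groups alone (adjusted p = 0.00321). The difference between the TAC effects was -0.17 ± 0.12 (adjusted p = 1.00), and -0.26 ± 0.08 without that library (adjusted p = 0.207).

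C7 joins C5b and C6 in the membrane attack complex. It had 22.5, 27.4 and 30.0 CPM in TAC/Benzene, 30.1, 35.9 and 41.1 CPM in TAC/Air, 30.1, 33.2 and 49.8 CPM in Sham/Benzene, and 30.0, 34.6 and 39.0 CPM in Sham/Air. TAC/Benzene lay below the other 3 groups, with almost no gap to the lowest library of each. Those 3 groups overlapped throughout. C7 fell for TAC/Benzene over Sham/Benzene, by 0.42 on the log2 scale with an SE of 0.12 (adjusted p = 0.0127).

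TAC/Air over Sham/Air gave 0.04 ± 0.12 for C7 on the log2 scale (adjusted p = 0.861). TAC/Benzene over TAC/Air gave -0.41 ± 0.12 (unadjusted p = 0.00190, adjusted p = 0.170). That comparison was called by DESeq2 (adjusted p = 0.0489), limma-voom (adjusted p = 0.00212), the fit of the 2 groups alone (adjusted p = 0.0161) and the fit with GC and length offsets (-0.38 ± 0.10, adjusted p = 0.0430). The difference between the TAC effects was -0.46 ± 0.17 (unadjusted p = 0.0104, adjusted p = 0.734).

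Serping1 encodes the inhibitor of the first proteases of the classical and lectin pathways, and its libraries separated by surgery without overlap. It had 224, 241 and 272 CPM in TAC/Benzene, 236, 249 and 273 CPM in TAC/Air, 153, 179.7 and 206 CPM in Sham/Benzene, and 146, 157 and 191 CPM in Sham/Air. Every TAC library lay above every sham library, and the 2 TAC groups overlapped, as did the 2 sham groups. The log2 fold change was 0.42 ± 0.09 in benzene (adjusted p = 0.000744) and 0.64 ± 0.09 in air (adjusted p = 5.31e-06). Between the TAC effects the difference was -0.21 ± 0.12 (adjusted p = 1.00). Benzene over air gave -0.06 ± 0.09 in TAC (95% interval -0.23 to 0.11) and 0.15 ± 0.09 in sham (95% interval -0.02 to 0.32).

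Clu, the most abundant member, was called by edgeR both for surgery and, among TAC hearts, for exposure. It had 1248, 1327 and 1384 CPM in TAC/Benzene, 979, 1045 and 1118 CPM in TAC/Air, 729.6, 848 and 903 CPM in Sham/Benzene, and 839, 852 and 955 CPM in Sham/Air. The order of the groups was TAC/Benzene, TAC/Air and then the sham groups, which overlapped with each other. Neither TAC group overlapped with the other or with a sham group. The 955 CPM was Sham/Air replicate 1, and the other libraries of that group lay at 866 CPM or below.

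TAC/Benzene over Sham/Benzene gave a log2 fold change of 0.65 ± 0.07 for Clu (1.57-fold, adjusted p = 3.69e-08). TAC/Air over Sham/Air gave 0.28 ± 0.07 (adjusted p = 0.00410). TAC/Benzene over TAC/Air gave 0.33 ± 0.07 (1.26-fold, adjusted p = 0.0138), while Sham/Benzene over Sham/Air gave -0.05 ± 0.07 (adjusted p = 0.912). The difference between the TAC effects was 0.38 ± 0.09 (unadjusted p = 0.000425, adjusted p = 0.148). DESeq2 called that difference (adjusted p = 0.000550), as did limma-voom (adjusted p = 0.00258) and the fit without Sham/Air replicate 1 (0.35 ± 0.07, adjusted p = 0.0274).

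Clu lost 2 calls where the GC trend was fitted. With GC and length offsets it was at 0.06 ± 0.15 for TAC/Air over Sham/Air (adjusted p = 0.822) and at 0.29 ± 0.15 for TAC/Benzene over TAC/Air (adjusted p = 0.499). With the same offsets but without Sham/Air replicate 1, both were called, at 0.33 ± 0.06 (adjusted p = 3.32e-05) and 0.29 ± 0.06 (adjusted p = 0.000993). TAC/Benzene over TAC/Air was also not called without a filter on low counts (0.32 ± 0.07, adjusted p = 0.0517), and TAC/Air over Sham/Air not in the fit of the 2 groups alone (adjusted p = 0.0523).

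**Figure D4:**
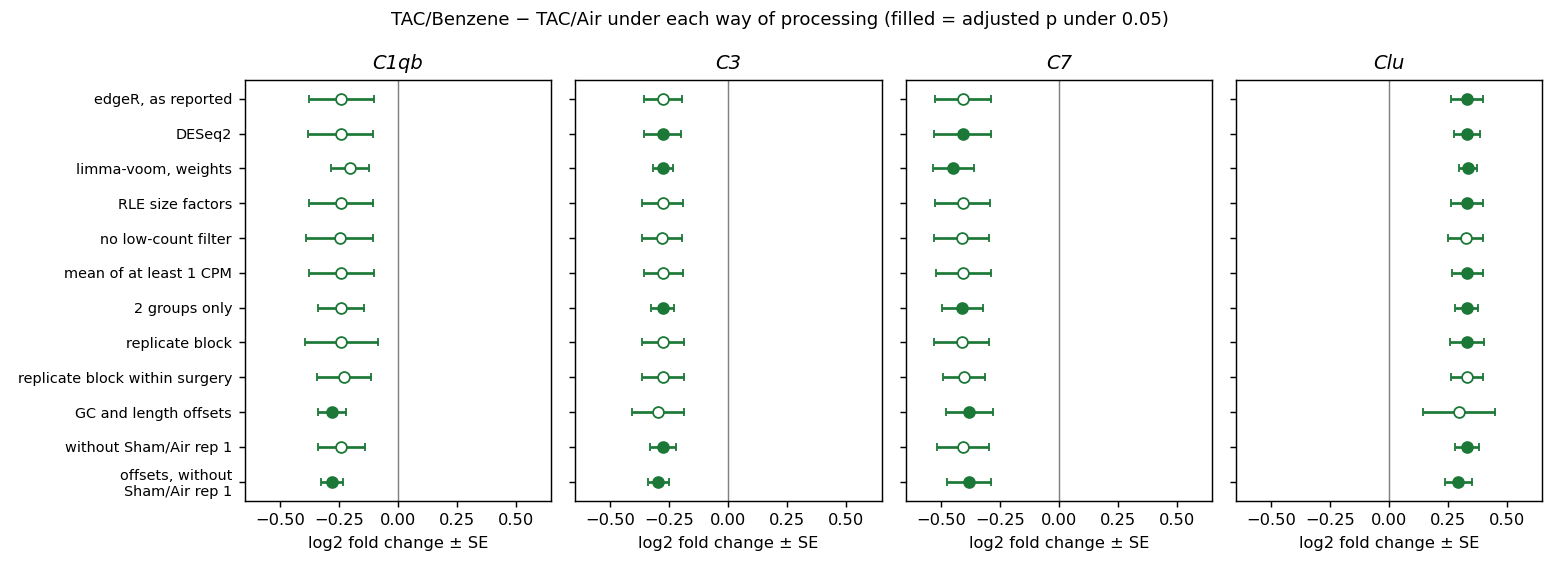
For C1qb, C3, C7 and Clu, points give the log2 fold change of TAC/Benzene over TAC/Air with its SE (horizontal axis) under 12 ways of processing the counts (rows), filled where the adjusted p was under 0.05. The values stay on 1 side of 0 in every row, at -0.24 for C1qb, -0.28 for C3, -0.41 for C7 and 0.33 for Clu as reported, and what varies is which of them pass the threshold.

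Markers of other cells were read beside the inhibitors and terminal components. The summed level of 12 fibroblast genes was 5773 to 6219 CPM in TAC/Benzene, 6244 to 6762 CPM in TAC/Air, 3579.7 to 3924 CPM in Sham/Benzene and 3631 to 4281 CPM in Sham/Air, so that the TAC groups lay above the sham groups, as Serping1 did. The sum holds Postn and Col3a1, which averaged 979 and 725 CPM in TAC/Air and 110 and 211 CPM in Sham/Air. Pdgfra, Dcn and Gsn were not called by edgeR for TAC in air or in benzene, while limma-voom called Pdgfra and Dcn in both. Of the 12 fibroblast genes, 7 were higher after TAC in benzene and 8 in air, where 8.67% and 8.81% of all genes were called higher. For benzene in TAC edgeR called none of the 12, DESeq2 called 2 and limma-voom 3. The summed level of 12 neutrophil genes was 60.3 to 71.4 CPM in TAC/Benzene, 13.7 to 20.9 CPM in TAC/Air, 12.9 to 28.5 CPM in Sham/Benzene and 15.2 to 24.9 CPM in Sham/Air. All 7 neutrophil genes that were tested were higher in TAC/Benzene than in TAC/Air and than in Sham/Benzene. Of all genes, 0.295% were called higher in the first comparison and 8.67% in the second. The granule genes Mpo and Elane were at 0 in all groups. TAC/Benzene is the group in which C3 and C7 were lowest and Clu highest. Of 8 cardiomyocyte genes, 6 were lower after TAC in air and 5 in benzene, where 7.35% and 7.97% of all genes were called lower. Of 8 endothelial genes, none was called in air and 1 was higher in benzene. Of 8 smooth muscle and pericyte genes, 1 was higher and 2 lower in air, and 2 were lower in benzene. Of 2 tested mesothelial genes 1 was higher in each, and of 4 tested lymphocyte genes 1 in benzene. For benzene in TAC, edgeR called none of these cardiomyocyte to lymphocyte genes. The part of these cells in the member levels was not tested.

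Of 41 other complement genes, 24 were tested. After TAC in air 5 were called higher and 2 lower, with a median log2 fold change of 0.06 where that of all genes was -0.01. The background there was the 8.81% of all genes higher and 7.35% lower, and the 2 lower of 24 lie near it. After TAC in benzene 2 were higher and 3 lower, with a median of -0.01 where that of all genes was 0.00 and the background 8.67% higher and 7.97% lower. By role, 3 of 5 tested classical and lectin genes were higher in air, and 1 was higher and 1 lower in benzene. Among receptors, 1 of 9 was higher in each comparison, and 1 of 5 membrane-bound inhibitors was lower in each. The 1 of 9 lies near that background.

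Masp1, which encodes lectin pathway proteases, had the larger difference of the 2 that were higher in benzene. It had 22.1, 23.6 and 24.7 CPM in TAC/Benzene, 13.3, 17.7 and 19.7 CPM in TAC/Air, 8.83, 10.4 and 13.8 CPM in Sham/Benzene, and 7.02, 9.79 and 11.5 CPM in Sham/Air. TAC/Benzene lay above all other libraries and TAC/Air above all of Sham/Air. The log2 fold change was 1.10 ± 0.13 for TAC in benzene (adjusted p = 2.98e-07) and 0.90 ± 0.13 in air (adjusted p = 1.67e-05). For benzene in TAC it was 0.43 ± 0.12 (adjusted p = 0.159), called by DESeq2 (adjusted p = 0.0358) and by limma-voom (adjusted p = 0.00604).

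C1ra and C1s1 encode the proteases carried by C1q. C1s1 had 61.4, 65.7 and 69.8 CPM in TAC/Benzene, 72.8, 74.7 and 76.8 CPM in TAC/Air, 57.2, 65.9 and 74.5 CPM in Sham/Benzene, and 56.0, 62.5 and 66.1 CPM in Sham/Air. TAC/Air lay above all of Sham/Air and all of TAC/Benzene. C1s1 was higher after TAC in air (0.27 ± 0.07, adjusted p = 0.00891) and at 0.01 ± 0.07 in benzene. C1ra averaged 31.5 CPM in TAC/Air and 22.4 CPM in Sham/Air (0.50 ± 0.11, adjusted p = 0.00269), and its log2 fold change in benzene was 0.30 ± 0.11 (adjusted p = 0.0775). Both have near copies in the mouse genome, C1rb and C1s2, so that their counts are uncertain to that extent.

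The membrane inhibitor gene Cd59a, whose product stops the last step of membrane attack, was lower after TAC. It averaged 101 CPM in TAC/Benzene and 129 CPM in Sham/Benzene (-0.35 ± 0.06, adjusted p = 8.41e-05), and 108 CPM in TAC/Air and 129 CPM in Sham/Air (-0.25 ± 0.06, adjusted p = 0.00370). Neither comparison of Cd59a overlapped. The call in air was lost with GC and length offsets (-0.15 ± 0.08, adjusted p = 0.151).

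Of the 3 alternative pathway genes 1 was called higher in air and another lower in benzene. Cfb, for factor B, averaged 8.21 CPM in TAC/Air and 4.76 CPM in Sham/Air (0.70 ± 0.23, adjusted p = 0.0369). Sham/Air replicate 1 held 0.568 CPM of it, and without that library the value was 0.55 ± 0.17 (adjusted p = 0.0188). Cfd, which encodes factor D or adipsin and is abundant in fat cells, averaged 1.16 CPM in TAC/Benzene and 3.33 CPM in Sham/Benzene (-1.53 ± 0.38, adjusted p = 0.00496). Its groups overlapped, and in TAC/Benzene it lay below every TAC/Air library (-1.18 ± 0.38, adjusted p = 0.299). Cfp, for properdin, was called by edgeR in neither comparison of TAC with sham, and by limma-voom in benzene.

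Of the remaining called genes, Fcna, for a ficolin of the lectin pathway, averaged 2.13 CPM in TAC/Benzene and 5.65 CPM in Sham/Benzene (-1.39 ± 0.26, adjusted p = 0.000349). In air it was at -0.66 ± 0.26 (adjusted p = 0.0907), and called lower without Sham/Air replicate 1 (-0.81 ± 0.20, adjusted p = 0.00348). Cd93, an endothelial receptor once held to bind C1q, averaged 170.7 CPM in TAC/Benzene and 126 CPM in Sham/Benzene (0.44 ± 0.11, adjusted p = 0.00626). The C5a receptor gene C5ar1, which is also on the macrophage list, was at 0.40 ± 0.14 in air (adjusted p = 0.0466), and C8g, for a chain of C8, at -0.78 ± 0.26 (adjusted p = 0.0442). When each library was left out in turn, the call in air was kept in 5 of 24 fits for C5ar1, 11 for C8g and 17 for Cfb. Cfb lost it without Sham/Air replicate 3, 4 or 5 and without TAC/Air replicate 1, 2, 4 or 6. Cd55, a membrane inhibitor, was called when the exposures were averaged (0.37 ± 0.12, adjusted p = 0.0202).

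**Figure D5:**
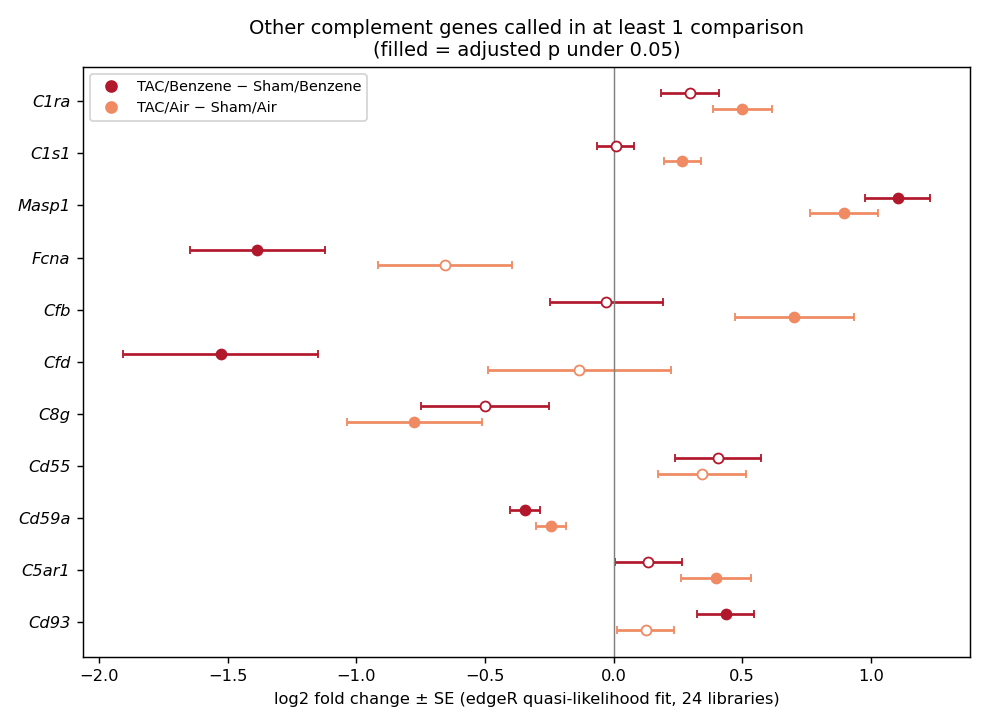
For the 11 other complement genes called in at least 1 comparison, points give the log2 fold change of TAC over sham with its SE (horizontal axis) in benzene and in air, filled where the adjusted p was under 0.05. Masp1 is filled above 0 and Cd59a below 0 in both, while C1s1, C1ra, Cfb, C8g and C5ar1 are filled in air and Fcna, Cfd and Cd93 in benzene.

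For benzene in TAC and for benzene in sham, none of the 24 was called by edgeR. In TAC, 7 had an unadjusted p under 0.05, and DESeq2 called 1 and limma-voom 2. In sham, 1 had an unadjusted p under 0.05, Cfb, and neither DESeq2 nor limma-voom called any. For the difference between the TAC effects, where 0.169% of all genes were called, no member and none of the 24 was called by edgeR. The unadjusted p was under 0.05 for 4 members and for 4 of the 24, and DESeq2 and limma-voom each called 1 member, Clu, and none of the 24.

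Some complement genes that in mice are liver transcripts were counted in single libraries. C8a, C8b, C9, C4bp, Mbl1 and Mbl2 had between 4 and 9 counts over the 24 libraries, all in Sham/Benzene replicates 1, 3 and 4. The other 18 libraries outside Sham/Benzene had 0, which allows up to 3 counts per gene and library. The same 3 replicates held 74.5, 20.6 and 7.19 CPM of Alb, for albumin, while no other library exceeded 0.192 CPM. The summed level of 11 hepatocyte genes reached 223 CPM in Sham/Benzene replicate 1, against at most 86.8 CPM in TAC/Benzene, 97.9 CPM in TAC/Air and 81.3 CPM in Sham/Air. Trf, at 58.1 to 92.1 CPM in every library, made up most of the sums outside Sham/Benzene. Fgb, Fga and Serpina1c had no count outside Sham/Benzene. The part of liver RNA in the Sham/Benzene levels of the members was not tested.

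Lung and atrial transcripts also differed between groups. The summed level of 8 lung epithelium genes was 0.349 to 0.927 CPM in TAC/Benzene, 0.234 to 0.905 CPM in TAC/Air, 0.685 to 2.47 CPM in Sham/Benzene and 7.10 to 11.3 CPM in Sham/Air, so that Sham/Air lay above all other libraries. Scgb1a1, for a secretory protein of airway club cells, averaged 0.135 CPM in TAC/Air and 6.32 CPM in Sham/Air (adjusted p = 3.33e-10), and 0.732 CPM in Sham/Benzene (adjusted p = 1.53e-05 against Sham/Air). Sftpc, for a surfactant protein, was called lower in the same 2 comparisons, and the genes Scgb3a2, Sftpa1 and Sftpd were at 0 in all groups but Sham/Air. Sham/Air is the group against which TAC in air was read for C2, C4b, Serping1 and Clu. Of 5 tested atrial genes, 1 was higher and 4 lower after TAC in benzene, and 1 was higher and 1 lower in air. The higher one was Nppa in both, which is also among the load-induced genes named above. The background was 8.67% of all genes higher and 7.97% lower in benzene, and 8.81% higher and 7.35% lower in air. The atrial light chain gene Myl7 averaged 10.6 CPM in TAC/Benzene, 14.0 CPM in TAC/Air, 36.0 CPM in Sham/Benzene and 20.8 CPM in Sham/Air. The part of lung or atrial RNA in the member levels was not tested.

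Correlations across libraries describe how the members varied, and share the same libraries and their GC trends. Over the 23 libraries without Sham/Air replicate 1 and as deviations from group means, C7 ran against the C1q chains, with Pearson's r of -0.76 to -0.71. C4b ran with them, at 0.70 to 0.72, and Clu too, at 0.57 to 0.66. With Sham/Air replicate 1 the values were -0.66 to -0.51 for C7, 0.83 to 0.95 for C4b and -0.15 to 0.08 for Clu. C2, with its few counts, was at 0.06 or below with each of the 3, and at 0.44 to 0.52 with that library. Over the 23 libraries Serping1 ran with C7, at 0.65, and against the C1q chains, at -0.67 to -0.56. Over all 24 its correlation with those chains was -0.19 to 0.01. The correlation of C3 with C4b was -0.73 with Sham/Air replicate 1 and 0.34 without it.

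The genes most alike in level over the 24 libraries, among 12450 candidates with a mean of at least 1 CPM and a named symbol, are given by their Pearson's r of log2 CPM. Clu was most like Bambi (0.968) and Prnp (0.952), whose r within groups was 0.748 and 0.415. Prnp averaged 302 CPM in TAC/Benzene, 243 CPM in TAC/Air, 172 CPM in Sham/Benzene and 166 CPM in Sham/Air, the same order as Clu among the TAC groups. Serping1 was most like Atp6v1h (0.955) and Pqlc3 (0.940), and Pqlc3 stood at 16.9 CPM in TAC/Benzene, 18.0 CPM in TAC/Air, 8.02 CPM in Sham/Benzene and 7.53 CPM in Sham/Air. The mean of the C1q chains was most like Vamp5 (0.977) and Itm2c (0.973), with 0.982 and 0.986 within groups.

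C3 was most like Lsamp (0.877) and Nckap5 (0.873), and C7 most like Slf2 (0.842) and Tmx1 (0.838). C2 was most like Fam180a (0.851) and Npas2 (0.843). Within groups and without Sham/Air replicate 1, r in the order named was 0.336 and 0.457 for C3 and 0.833 and 0.699 for C7. For C2 it was 0.344 and 0.700. C4b was most like Col27a1 (0.975) and Rcc2 (0.973), which dropped to 0.797 and 0.787 without Sham/Air replicate 1, where Col27a1 had no count. Within groups and without that library, r was 0.688 and 0.845 for C4b and 0.842 and 0.586 for Serping1. For Clu the 2 values without that library were 0.979 and 0.956, and within groups 0.829 and 0.310.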

How the data were processed

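The deposited table holds raw counts of reads per gene symbol for 24 libraries; no other value was used. Per the labels' protocols, poly-A RNA was sequenced as paired ends on an Illumina NovaSeq. Per the submitters' processing notes, FastQC 0.11.9, STAR, DESeq2 and the mouse build mm9 were used; how reads were counted, with which annotation and with or without strand, is not given here, so reads of overlapping or antisense genes and near-identical copies cannot be separated. Unmapped columns numbered 0.

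Counts were fitted with edgeR 4.0.16 in R 4.3.3: filterByExpr with a minimum count of 10 and total of 15, TMM factors, 1 coefficient per group, robust quasi-likelihood F tests of 7 contrasts, and Benjamini-Hochberg adjustment over all 13571 tested genes, with calls at 0.05. Log2 CPM used a prior count of 2. The fit was tested on simulated counts. No 2 libraries agreed within sampling noise. Libraries were grouped by their titles. Alternatives were DESeq2 1.42.0, limma 3.58.1 (voom with sample quality weights), RLE factors, no filter, a filter at 1 CPM on average, a fit of 2 groups, a replicate block (over all groups, and within surgery for the comparisons with benzene), offsets for GC content and length, and each library left out.

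The members and all gene lists were chosen with earlier results of these data known. Named are all members, every other listed complement gene called in at least 1 comparison (1 gene is not reported here), up to 2 called genes per marker list, 4 load-induced genes, and the 2 genes most correlated with each member or with the C1q mean. Promoters are from RefSeq (GRCm38.p6), and GC content and length from the longest GENCODE transcript, which 98.5% of the tested symbols matched. Totals limit precision for rare genes such as C2.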

Additional observations from a re-analysis of the deposited data

Results flagged for a closer look

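Across 80 combinations of gene and group (20 genes, 6 libraries each), 10 held a library far from the other 5, where chance alone gives about 1 in 20, or 4. Of the 10, 8 were in Sham/Air replicate 1. It was high for C3 at 382 CPM (nearest library 285 CPM), Clu at 955 CPM (866 CPM) and Cd93 at 199.7 CPM (147 CPM). It was low for C1qb at 34.9 CPM (60.4 CPM), C1qc at 10.8 CPM (50.2 CPM), C4b at 11.6 CPM (44.1 CPM), Fcna at 0.568 CPM (4.27 CPM) and Cfb at 0.568 CPM (5.04 CPM). This library had the lowest total, 4170660 counts, and the most negative GC trend, with a rho of -0.72, and the part of these in its levels was not tested. Sham/Benzene replicate 3 was low for Clu at 729.6 CPM, where the nearest library was at 846 CPM. TAC/Benzene replicate 2 was low for Cd55 at 18.3 CPM, where the nearest was at 22.6 CPM.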

How the results depend on the processing

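Calls of the 9 members were the same 4 of 9 for TAC in benzene under all alternatives. For TAC in air the count was 4, and went to 2 in the fit of 2 groups and to 5 with the offsets without Sham/Air replicate 1. With the offsets on all 24 libraries it stayed at 4, but Clu lost its call and C1qb gained one. For TAC averaged over exposure the count of 4 became 5 with DESeq2 and limma-voom and 6 with the offsets, with or without Sham/Air replicate 1. For benzene in TAC the count of 1 became 3 with DESeq2, limma-voom and the fit of 2 groups, 2 with the offsets and with the replicate block plus offsets, 6 with the offsets without Sham/Air replicate 1, and 0 with no filter and with the replicate block within surgery. For the interaction the 0 became 1 with DESeq2 and with limma-voom and 3 with the offsets without Sham/Air replicate 1. For benzene averaged over surgery the 0 became 2 with limma-voom and 3 with those offsets. The offsets without that library and the block within surgery were added after seeing the data. Of the other complement genes, the 7 called for TAC in air became 4 with the replicate block, 3 in the fit of 2 groups, 11 with limma-voom, the offsets and the block plus offsets, and 12 with the offsets without Sham/Air replicate 1. The 5 for TAC in benzene became 11 with limma-voom, 9 with the offsets and in the fit of 2 groups, 8 with the block plus offsets, and 10 with the offsets without that library. The 0 for benzene in TAC became 1 with DESeq2, the offsets and the block plus offsets, and 2 with limma-voom, the fit of 2 groups and the offsets without that library. For benzene averaged the 0 became 1 with limma-voom and with the offsets without that library. Leaving out each library gave 3 to 5 members for TAC in air, 1 to 2 for benzene in TAC, 0 to 1 for the interaction and 0 to 1 for benzene averaged, and 4 to 9 other genes for TAC in air (the 4 without TAC/Air replicate 1 or 2), 5 to 9 for TAC in benzene and 0 to 1 for benzene in TAC. The upper end for benzene in TAC, the interaction, benzene averaged and the other genes in benzene came without Sham/Air replicate 1. Among all genes, benzene in TAC called 79, and 171 with DESeq2, 556 with limma-voom, 46 with the block and 234 without Sham/Air replicate 1.

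Of 638 member values under the alternatives other than leaving out 1 library, 572 kept their direction and side of the threshold, 36 gained a call and 8 lost one. The 22 that changed sign were of uncalled values: under limma-voom, TAC in air (C1qa -0.0083, C1qc -0.058), benzene in sham (C7 -0.0056), TAC averaged (C1qa -0.11, C1qc -0.10), benzene averaged (C1qc -0.031, C4b -0.023, Serping1 -0.0041); under the offsets, TAC in benzene (C4b -0.0093), benzene in sham (C1qb -0.045), benzene averaged (C1qc -0.021); under the replicate block with offsets, TAC in benzene (C4b -0.0082), benzene in sham (C1qb -0.051), benzene averaged (C1qc -0.018); under the offsets without Sham/Air replicate 1, TAC in benzene (C4b -0.0095), benzene in sham (C3 0.0041, Clu 0.0098), TAC averaged (C1qa -0.0033, C1qc -0.033), benzene averaged (C1qc -0.063, C4b -0.031); under the block within surgery, benzene averaged (C1qa 0.019). Leaving out 1 library turned some uncalled values, with these ranges: TAC in air (C1qc -0.025 to 0.28, C7 -0.0053 to 0.078), TAC in benzene (C1qb -0.018 to 0.075), benzene in sham (C1qa -0.017 to 0.26, C1qb -0.036 to 0.14, C1qc -0.033 to 0.28, C7 -0.058 to 0.10), TAC averaged (C1qa -0.021 to 0.12, C1qc -0.057 to 0.094), benzene averaged (C1qa -0.13 to 0.019, C1qc -0.064 to 0.093, C4b -0.027 to 0.10). The cause was not tested. The labels do not say that equal replicate numbers pair libraries. Correlations of same-numbered deviations from group means were over 0.1 in 5 of 6 pairs of TAC/Benzene with TAC/Air (-0.02 to 0.34) and 4 of 6 of Sham/Benzene with Sham/Air (-0.03 to 0.47), and in none of the 24 pairs of TAC with sham. Between TAC/Air and sham they ran from -0.53 to -0.02 with Sham/Air and from -0.44 to -0.095 with Sham/Benzene. Between TAC/Benzene and sham they ran from -0.34 to 0.09 with Sham/Air and from -0.34 to 0.06 with Sham/Benzene. With 1 replicate block over all groups, 13 of the 13 member calls were kept. Such a block fits the same shift in all groups, so it cannot take up shifts of opposite sign in TAC and sham. With a block within surgery, Clu for benzene in TAC was at 0.33 ± 0.07 and not called (adjusted p = 0.0502), and C7 at -0.40 ± 0.09 (adjusted p = 0.0697).

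Calls that miss the threshold do not show equal levels. C2 rests on few reads, down to 1 in a library.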
